A study of Mus musculus with 2 samples.

Results

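The endoplasmic reticulum (ER) folding and degradation genes comprised 40 genes, taken from a fixed list of ER chaperones, disulfide isomerases, stress sensors, translocation factors and genes of ER-associated degradation. The rule that fixes the list uses no measured value, although earlier results of these data were known when it was drawn up. All 40 were found among the 34714 genes of the table, with Ero1l listed as Ero1a, and 39 of them reached 1 FPKM, a count of fragments scaled to transcript length and library size, in at least 1 library. Ern1 alone stayed under that level. Their values came from RNA sequencing of mouse bone marrow-derived macrophages of strain C57BL/6, which are marrow cells grown in macrophage colony-stimulating factor until they become macrophages. The cells had been exposed for 24 h to FGK45, an antibody against the receptor CD40, or to IgG as the control. There was 1 library per group, so the differences carry no replicate error and no test was possible. The estimated depth was 6.16 gigabases of aligned sequence for anti-CD40 and 5.58 for IgG. The labels give neither the age nor the sex of the mice. In bulk RNA, fewer cells of a type and less RNA per cell cannot be told apart.

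The ER is where secreted and membrane proteins are threaded through the Sec61 channel, folded by chaperones and joined by disulfide bonds. Proteins that fail to fold are pulled back into the cytosol and destroyed by the proteasome, a route known as ER-associated degradation. When unfolded protein accumulates, the sensors ATF6, IRE1 (encoded by Ern1) and PERK (encoded by Eif2ak3) start the unfolded protein response, in which ATF6 and the factor XBP1 switch on chaperone and degradation genes. Macrophages rely on this system for the cytokines, lysosomal enzymes and receptors that they make in large amounts.

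Factors of this response bind the ER stress element (ERSE), the letters CCAAT and CCACG 9 bases apart, and a shorter form, ERSE-II, the letters ATTGG and CCACG 1 base apart. The promoter windows of the members, from 250 bases before to 50 bases after the gene's start (RefSeq, GRCm38.p6), were searched for exact matches on both strands. Windows were found for 34 of the 40 members, and Atf6, Derl1, Hyou1, Manf, Sec61a1 and Ssr2 had none. An exact ERSE lay in the windows of 7 of these 34 members (20.6%), against 39 of 32851 windows of all genes (0.119%) and 13 of 10015 windows of genes at 1 FPKM or more (0.13%). ERSE-II lay in the window of 1 member, Herpud1, against 0.0365% of all windows. The members with a match are also counted among these windows, and members were counted as genes rather than windows. Both elements were searched as known sites of this response, so the shares describe the list and are no test. The matches carry the comparison of promoters made with the expression values, and each is written 5′ to 3′ in the direction of its own strand, with the fixed letters in capitals.
Hspa5: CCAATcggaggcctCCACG
Calr: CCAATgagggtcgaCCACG
Hsp90b1, farther match: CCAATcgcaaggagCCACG
Hsp90b1, nearer match: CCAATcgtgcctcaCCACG
Canx: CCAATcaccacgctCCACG
Pdia6: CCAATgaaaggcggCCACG
Creld2: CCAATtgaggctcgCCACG
Syvn1: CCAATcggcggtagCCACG
Herpud1: ATTGGgCCACG

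Hsp90b1 was the member with more than 1 match, and all 9 matches lay upstream of the gene's start. The nearest ended 26 bases before the start of Syvn1 and the farthest ended 194 bases before that of Hsp90b1. The element TGACGTGG, a form of the site bound by XBP1, was searched on both strands too and lay in the window of Vcp alone, against 0.676% of all windows. The shared CCACG letters by themselves are common, with a match in 25 of the 34 members (73.5%), in 32.8% of all windows and in 47.6% of windows of genes at 1 FPKM or more.

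**Figure D1:**
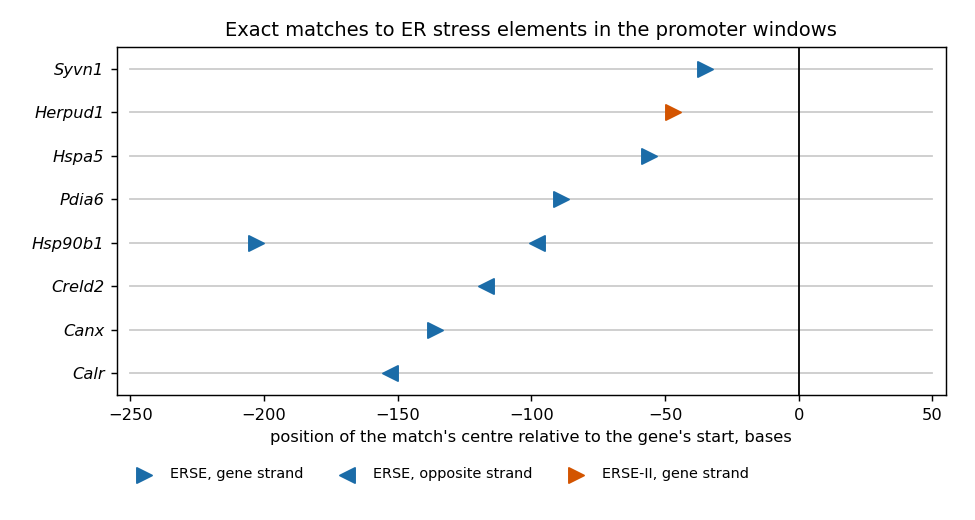
Positions of exact ERSE and ERSE-II matches in the promoter windows of the 8 members that hold one; the x axis gives the match's centre in bases relative to the gene's start (0), and the arrow its strand. All matches lie before the start, and Syvn1, Herpud1 and Hspa5 hold the nearest ones.

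Full windows are given for the classic ER chaperone gene Hspa5 and for the 2 element-bearing members that differed most between the libraries, Syvn1 and Herpud1. Capitals mark the fixed letters of the element, and each window is written 5′ to 3′ on the gene's own strand. They lie at chr2:34771840-34772139 (Hspa5), chr19:6046326-6046625 (Syvn1) and chr8:94386179-94386478 (Herpud1), all on the plus strand of GRCm38.p6.
Hspa5: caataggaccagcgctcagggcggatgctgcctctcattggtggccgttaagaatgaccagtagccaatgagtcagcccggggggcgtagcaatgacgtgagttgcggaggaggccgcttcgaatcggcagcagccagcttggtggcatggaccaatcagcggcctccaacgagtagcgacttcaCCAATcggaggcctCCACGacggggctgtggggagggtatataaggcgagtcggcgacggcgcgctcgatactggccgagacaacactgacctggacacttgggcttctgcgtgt
Syvn1: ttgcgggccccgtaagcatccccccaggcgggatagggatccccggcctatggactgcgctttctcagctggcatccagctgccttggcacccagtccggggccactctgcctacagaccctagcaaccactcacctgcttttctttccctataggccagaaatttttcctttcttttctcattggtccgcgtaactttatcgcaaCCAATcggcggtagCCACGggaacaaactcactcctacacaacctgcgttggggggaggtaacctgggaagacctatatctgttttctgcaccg
Herpud1: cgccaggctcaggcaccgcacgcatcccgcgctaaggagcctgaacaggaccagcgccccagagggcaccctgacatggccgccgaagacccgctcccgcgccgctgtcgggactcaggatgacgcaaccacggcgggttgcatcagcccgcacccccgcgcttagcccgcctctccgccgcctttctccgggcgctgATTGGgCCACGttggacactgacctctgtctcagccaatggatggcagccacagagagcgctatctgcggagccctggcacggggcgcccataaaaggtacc

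The question put to the expression values was how far these genes differed between macrophages exposed to anti-CD40 and to IgG. Most members were slightly higher with anti-CD40, by less than 1.3-fold, in the manner of most other genes in these libraries. The FPKM value was higher with anti-CD40 in 33 of the 40 members, and in 67.8% of the 9591 genes at 1 FPKM or more. The summed FPKM of the members was 2182 after anti-CD40 and 2026 after IgG, or 1.08-fold. These genes made up 0.412% of the anti-CD40 column and 0.37% of the IgG column.

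Differences were also expressed as the log2 ratio of FPKM + 1, anti-CD40 over IgG, which understates the difference of low genes. The median of this ratio over all genes at 1 FPKM or more was 0.122, so each gene's ratio was taken relative to this median gene. On that relative scale, the median of the members was 0.08, their mean 0.07, and 27 of 39 lay above the median gene. A limit of 0.32 log2 units was used, which is 25% above or 20% below the median gene. Past it on the higher side were 4 of 39 members (10.3%), Manf, Herpud1, Selenos and Syvn1, against 7.49% of all genes. On the lower side was 1 member (2.56%), Ppib, against 13.9% of all genes. No member was 1.5-fold apart, where 1.23% of all genes were higher and 4.23% lower, and none was 2-fold apart, against 0.699% of all genes either way. At this limit, the share of higher members was near that of all genes. With no filter on low values it was 7 of 40 members, against 8.42% of all genes. Without taking the median gene as reference, 9 members were past the limit on the higher side and 0 on the lower, against 18.3% and 8.26% of all genes. The direction of Uggt1, Os9, Vcp, Ssr1 and Ssr4 depends on the reference, since their FPKM was higher after anti-CD40 but by less than that of the median gene.

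**Figure D2:**
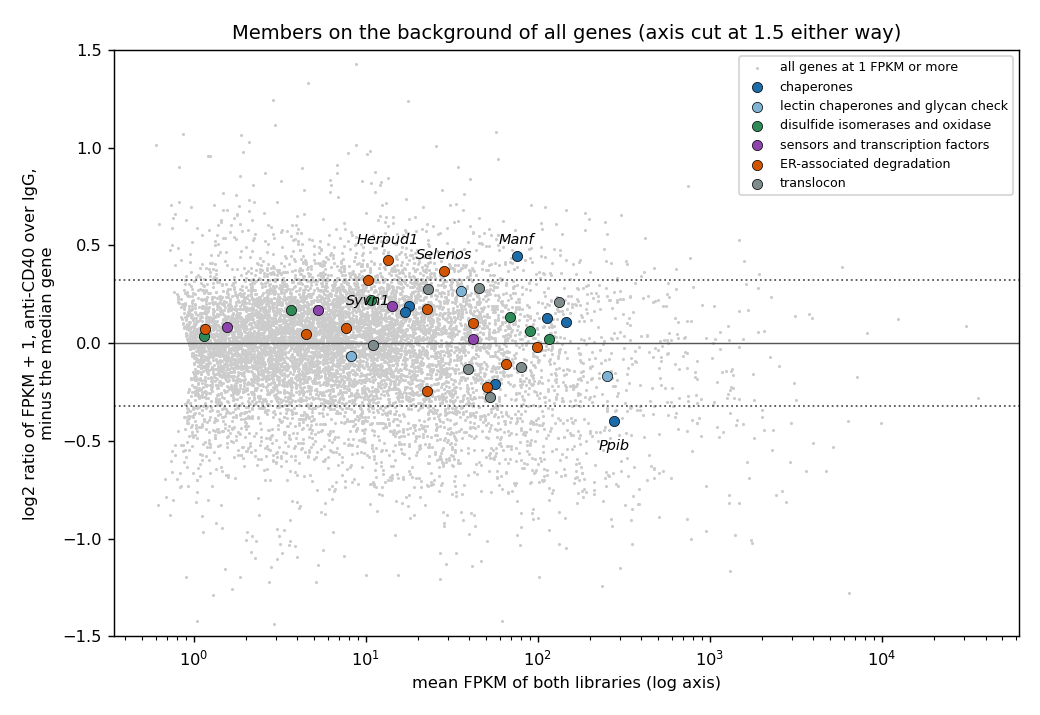
Log2 ratio of FPKM + 1 relative to the median gene (y axis) against mean FPKM of both libraries (log x axis) for all genes at 1 FPKM or more (grey) and 39 members (coloured by role); dotted lines mark the limit of 0.32 either way, and 9 genes outside the axis are not drawn. The 4 members above the upper line are Manf, Herpud1, Selenos and Syvn1, and Ppib lies below the lower line.

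The central 50% of all genes ran from -0.185 to 0.148 on the relative scale. Of the 39 members, 15 lay at or above its upper end, 19 within it and 5 at or below its lower end. Level, length and base composition moved with the ratio over all genes. Among the most abundant 25% of genes (from 21.1 FPKM), which held 24 members, 23.9% were past the lower limit, against 1 of the 24 members. These abundant genes had a median of -0.07, and the 24 members a median of 0.04. Of the 25% of genes with the highest transcript GC content (from 55.3%), which held 4 members, 25.1% were past the lower limit, against 5.96% of those with the lowest, which held 6. Of the 25% of genes with the shortest transcripts (up to 1567 bases), 22.5% were past the lower limit, and the 10 members among them had a median of -0.05. The part of these properties in the members' values was not tested.

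**Figure D3:**
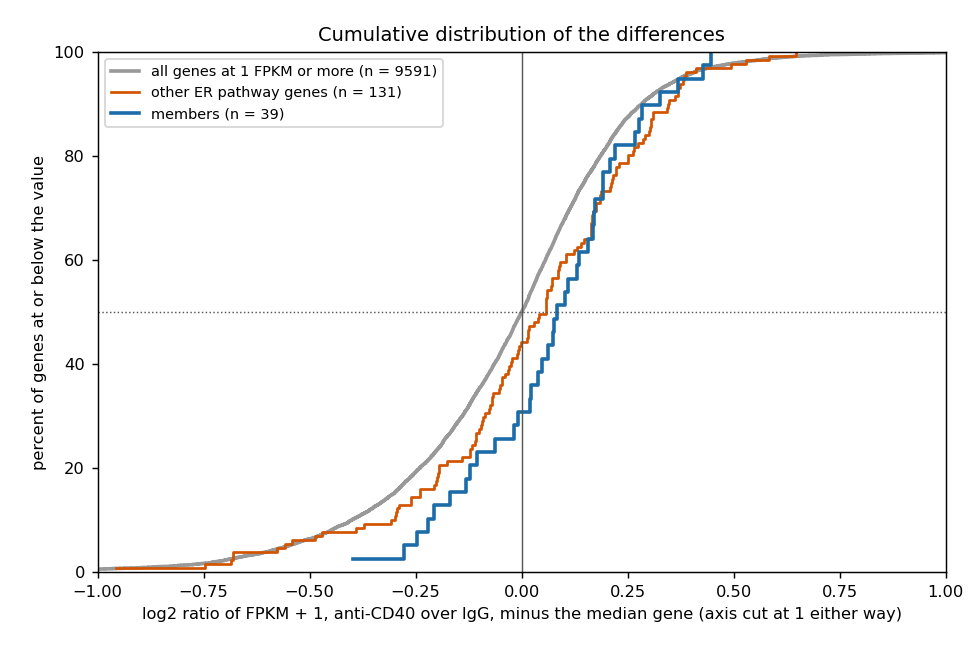
Percent of genes at or below each log2 ratio relative to the median gene, for all genes at 1 FPKM or more (n = 9591), 131 other ER pathway genes and 39 members; the x axis ends at 1 either way. The curve of the members lies to the right of that of all genes over its lower part and starts at -0.40, the value of Ppib.

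Levels spanned more than 2 orders of magnitude and their order hardly differed between libraries, with no member moving by more than 4 places of 40. Ppib, Calr, Hspa5 and Sec61b were the most abundant in both libraries, in that order. Ern1, Pdia5, Edem3 and Eif2ak3 were the least abundant in both.

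**Figure D4:**
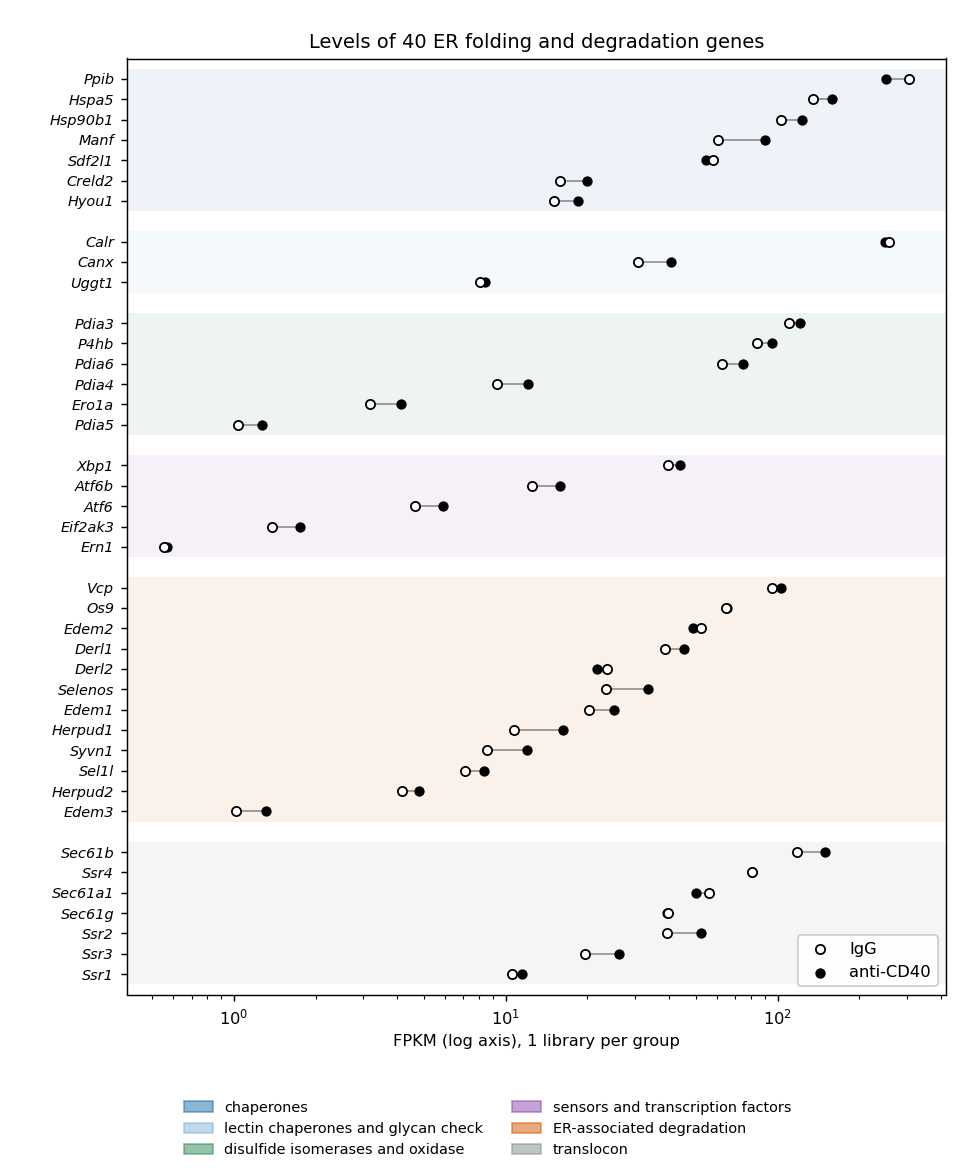
FPKM (log x axis) of the 40 members after IgG (open circles) and anti-CD40 (filled circles), 1 library each, grouped by role and ordered by the IgG level; where a filled circle is not seen, it lies beneath the open one. The longest lines between circles belong to Manf, Herpud1, Selenos and Syvn1, and Ppib lies on the other side, at 250.1 against 303 FPKM.

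The general chaperones came first. Hspa5, which encodes BiP, the HSP70 chaperone that also holds the stress sensors inactive, had 158 FPKM after anti-CD40 and 135 after IgG, a fold of 1.18 with a 95% counting interval from 1.14 to 1.21, and 0.11 above the median gene on the log2 scale. Such intervals are exact conditional binomial intervals on estimated fragments. They cover the error of counting and not the spread between cultures. Hsp90b1, the gene of the HSP90 chaperone GRP94 that folds Toll-like receptors and integrins, had 123 against 103 FPKM, or 1.19-fold (interval 1.15 to 1.24). Hyou1, a large HSP70-like partner that exchanges the nucleotide of BiP, had 18.5 against 15.1 FPKM, or 1.23-fold (1.14 to 1.32). All 3 were higher by a like amount, and their intervals overlap.

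Manf, a small secreted ER stress protein that binds BiP, stood furthest above the median gene of all members. It had 90.0 FPKM after anti-CD40 and 60.3 after IgG. The fold was 1.49, and its interval ran from 1.41 to 1.58. Its relative log2 ratio of 0.45 was at percentile 97.03 of all genes. This first place was not kept in every setting. With a pseudocount of 0.1 Herpud1 was at 0.439 and Manf at 0.428. With the GC trend removed Syvn1 was at 0.425, Herpud1 at 0.424 and Manf at 0.404. Manf lies on chromosome 9, 106888753 to 106891938, and its exons share 14 bases with Rbm15b on the same strand, a gene at 2.54 and 1.95 FPKM. They also share 166 bases with 4930524O07Rik on the opposite strand, a gene with no value here. The strand setting of the counting is not known, so reads of such shared stretches cannot be assigned and these values are uncertain there. Exons of 10 members overlap another annotated gene (Derl2, Eif2ak3, Hsp90b1, Manf, Pdia3, Pdia4, Pdia6, Ppib, Sec61a1 and Syvn1). Creld2, a cysteine-rich ER protein often induced together with Manf, had 19.9 against 15.8 FPKM, or 1.26-fold (1.11 to 1.44).

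Of the 7 general chaperones, 2 lay below the median gene. Sdf2l1, a BiP cofactor, had 54.6 FPKM after anti-CD40 and 57.9 after IgG, a difference within counting error (fold 0.942, interval 0.869 to 1.02). That interval includes 1 but lies below the median FPKM ratio of 1.11. Ppib, the proline isomerase cyclophilin B, was the most abundant member and had 250.1 against 303 FPKM. It was 1.21-fold lower, with an interval from 1.16 to 1.26, and its relative log2 ratio of -0.40 was at percentile 10.1 of all genes. The exons of Ppib (chromosome 9, 66060169 to 66066629) share 514 bases with Snx22 on the opposite strand, a gene at 1.15 FPKM after anti-CD40 and 1.14 after IgG. Ppib and Manf therefore lay at opposite ends of the same functional class.

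The lectin chaperones, which hold newly made glycoproteins by their sugar chains, were split. Calr, the gene of soluble calreticulin, had 249 FPKM after anti-CD40 and 257 after IgG. Its fold of 0.968 had an interval from 0.943 to 0.995. Canx, the gene of the membrane-bound partner calnexin, had 40.4 against 30.6 FPKM, or 1.32-fold (1.252 to 1.39). The counting intervals of the pair do not overlap. On the relative log2 scale Canx was at 0.27 and Calr at -0.17, and the promoter windows of both hold an ERSE. Uggt1, the folding sensor that sends unfinished glycoproteins back to these lectins, had 8.41 against 8.04 FPKM, and its interval from 0.972 to 1.13 includes no difference.

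All 6 genes of disulfide bond formation lay above the median gene, by 0.02 to 0.22 on the log2 scale, and none reached the limit. This position was not kept in every setting, since Pdia3 was at -0.0037 with a pseudocount of 0.1 and at -0.03 with the GC trend removed, and Pdia5 at -0.01 with a pseudocount of 5. Pdia3, the isomerase that works with calnexin and calreticulin and in MHC class I loading, had 121 FPKM after anti-CD40 and 109.8 after IgG, or 1.11-fold (1.07 to 1.14). P4hb, the founding disulfide isomerase, had 95.4 against 83.8 FPKM, and Pdia6 had 74.6 against 62.2. Less abundant members of the class had the larger folds. Pdia4 had 12.04 against 9.28 FPKM, or 1.30-fold (1.14 to 1.47). Ero1a, the oxidase that recharges these isomerases, had 4.12 against 3.18 FPKM, or 1.29-fold (1.10 to 1.52). Pdia5 rested on about 47 and 35 fragments at 1.27 against 1.03 FPKM, so its interval, from 0.768 to 1.94, allows a difference in either direction.

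The sensors and their factors were present at low to moderate levels. Xbp1 had 43.9 FPKM after anti-CD40 and 39.6 after IgG, 0.02 above the median gene. This gene-level value does not tell the spliced from the unspliced form of Xbp1, and splicing was not analysed here. Atf6 had 5.91 against 4.65 FPKM, or 1.27-fold (1.15 to 1.41), and its relative Atf6b 15.8 against 12.5, or 1.26-fold (1.13 to 1.41). The kinase gene Eif2ak3 had 1.75 against 1.38 FPKM, where the interval ran from 0.923 to 1.75. Ern1 had 0.567 against 0.554 FPKM, about 15 and 13 fragments at the median transcript length used for it, 1308.5 bases. With so few fragments a difference of less than 2-fold was not detectable in it (interval 0.464 to 2.39). A longer transcript would give more fragments and a narrower interval.

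Of the 12 genes of ER-associated degradation, 3 were past the higher limit and 0 past the lower, beside 7.49% and 13.9% of all genes, and the class was not tested against the other members. Among the 3, Syvn1 was under the limit with a pseudocount of 5 and with the length trend removed. Herpud1, an ER membrane protein that helps to assemble the degradation complex, had 16.2 FPKM after anti-CD40 and 10.8 after IgG. That is 1.51-fold (interval 1.33 to 1.72), and the relative log2 ratio of 0.43 was at percentile 96.7 of all genes. Its relative Herpud2 had 4.82 against 4.17 FPKM, with an interval on the fold from 0.965 to 1.39. The counting intervals of this pair overlap, and only Herpud1 of the 2 has an ERSE-II in its window.

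Syvn1, the gene of HRD1, the ubiquitin ligase at the centre of the complex, had 12.03 FPKM after anti-CD40 and 8.56 after IgG. The fold was 1.41, and its interval ran from 1.26 to 1.57. Its relative log2 ratio of 0.33 was just past the limit of 0.32, and Ssr2, the next member below, was at 0.28. Syvn1 exons share 91 bases with Mrpl49 on the opposite strand, which had 7.71 and 8.19 FPKM. Selenos, a selenoprotein that tethers the VCP motor to the membrane, had 33.3 against 23.4 FPKM, or 1.42-fold (1.27 to 1.60). Its relative log2 ratio was 0.37.

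Other parts of the same complex were closer to the median gene. Sel1l, the scaffold that holds HRD1, had 8.30 FPKM after anti-CD40 and 7.10 after IgG, or 1.17-fold (1.06 to 1.28). Os9, a lectin that reads trimmed glycans, had 65.3 against 64.5 FPKM, a difference within counting error. Derl1, a membrane protein of the export channel, had 45.4 against 38.7 FPKM, or 1.17-fold (1.11 to 1.24), while Derl2 had 21.6 against 23.6, with an interval on the fold from 0.818 to 1.02. The Derl2 exons share 231 bases with Mis12 on the opposite strand, at 4.06 and 3.18 FPKM. Vcp, the ATPase that pulls substrates out, had 103 against 95.5 FPKM, or 1.08-fold, and lay 0.02 below the median gene.

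The EDEM genes encode proteins that mark terminally misfolded glycoproteins by trimming mannose, and they were spread over both sides of the median gene. Edem1 had 25.1 FPKM after anti-CD40 and 20.3 after IgG, or 1.24-fold (1.17 to 1.31). Edem2, the most abundant of the 3, had 48.7 against 52.3 FPKM, 1.07-fold lower (1.01 to 1.14). Edem3 was low, at 1.31 against 1.02 FPKM with an interval from 0.923 to 1.84. The intervals of Edem1 and Edem2 do not overlap.

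The translocation genes also lay on both sides, with a median of -0.01 and a mean of 0.03 on the relative log2 scale. Sec61a1, which encodes the pore of the channel, had 50.004 FPKM after anti-CD40 and 55.8 after IgG, 1.12-fold lower (1.06 to 1.17). Sec61b, a small subunit of the same channel, had 149 against 118 FPKM, or 1.26-fold higher (1.17 to 1.36). The third subunit, Sec61g, had 39.2 against 39.4 FPKM. Genes of this 1 channel therefore differed from one another by more than counting error.

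The same held for the translocon-associated proteins, which assist the entry of some signal sequences. Ssr2 had 52.1 FPKM after anti-CD40 and 39.1 after IgG, or 1.33-fold (1.20 to 1.48), and Ssr3 had 26.2 against 19.6, also 1.33-fold (1.22 to 1.46). Ssr4 had 80.3 FPKM in both libraries. Ssr1 had 11.5 against 10.6 FPKM, with an interval from 0.945 to 1.26.

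**Figure D5:**
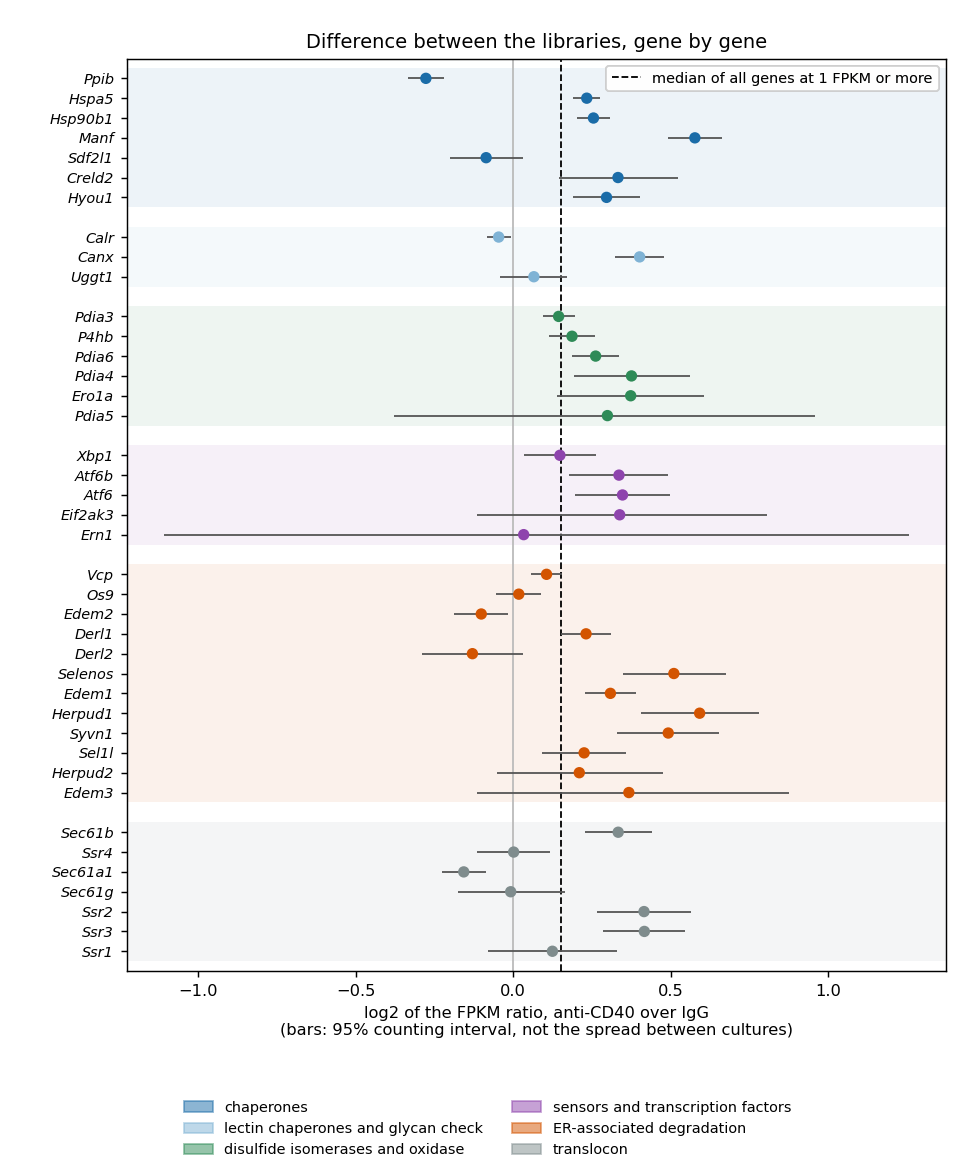
Log2 of the FPKM ratio, anti-CD40 over IgG (x axis), for the 40 members by role, with 95% counting intervals as bars; the dashed line is the median ratio of all genes at 1 FPKM or more (1.11) and the grey line is no difference. Manf, Herpud1, Selenos and Syvn1 lie furthest to the right, Ppib furthest to the left, and the widest bar belongs to Ern1.

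The counting interval of the FPKM ratio lay above 1 in 24 of the 39 members at 1 FPKM or more (61.5%) and below 1 in 4 (10.3%), Ppib, Calr, Edem2 and Sec61a1. The same held for 39% and 15.2% of the 9456 genes at 1 FPKM or more with a known transcript length. Against the median FPKM ratio of 1.11, the interval lay above in 17 members (43.6%) and below in 8 (20.5%), beside 19.9% and 25.5% of all genes. The 8 were Calr, Derl2, Edem2, Os9, Ppib, Sdf2l1, Sec61a1 and Ssr4. Of these, Derl2, Os9, Sdf2l1 and Ssr4 had intervals that include 1. Abundant genes have narrower intervals, and 24 of the 39 members were among the most abundant 25% of genes, a part that was not tested. The variation from culture to culture is not covered by the intervals.

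Members with and without an element in their promoter window were set side by side. The 8 with an exact ERSE or ERSE-II had a median of 0.16 on the relative log2 scale, from -0.17 for Calr to 0.43 for Herpud1, and 7 of them lay above the median gene. Of the 26 with a window but no exact match, 25 reached 1 FPKM, with a median of 0.04 and 15 above the median gene. The 6 members with no window to search, Manf among them, had a median of 0.16, with 5 above the median gene. The 13 genes at 1 FPKM or more that hold either element and are not members had a median of -0.02, with 6 above the median gene. Genes with an element thus lay on both sides of the median gene. A match is a description of letters and not a measured binding site or a cause.

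The rest of the ER machinery was taken from 6 further lists of 145 genes, of which 131 reached 1 FPKM. The median was 0.06, with 15 of them (11.5%) past the higher limit and 12 (9.16%) past the lower, again beside 7.49% and 13.9% of all genes. Among translocation, signal peptidase and glycosylation genes, 6 of 29 were past the higher limit and 1 past the lower. The counts of the other lists use the same limits and stand beside the same 7.49% and 13.9% of all genes. Srp14, a subunit of the signal recognition particle, had 132 FPKM after anti-CD40 and 80.3 after IgG, or 1.64-fold (1.52 to 1.77). Spcs1 of the signal peptidase had 76.0 against 49.3 FPKM. Srpr, the receptor subunit, had 16.5 against 10.2. Krtcap2, an oligosaccharyltransferase subunit, was the 1 lower gene, at 137 against 174 FPKM.

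Further degradation genes had 3 of 29 higher and 1 lower. Ube2g2, a ubiquitin-conjugating enzyme of this pathway, had 18.4 FPKM after anti-CD40 and 10.4 after IgG, or 1.77-fold (1.57 to 2.01). The ubiquitin ligase Rnf5 had 49.2 against 34.6 FPKM. The signal peptide peptidase gene H13 was the lower gene, at 48.8 against 75.7. Of other chaperones and foldases, 3 of 22 were higher and 3 lower, with Mcfd2 at 26.1 against 18.3 FPKM, but the proline isomerase Fkbp2 at 270.2 against 398 and Sil1, a BiP cofactor, at 26.9 against 36.3. Fkbp2 was 1.47-fold lower (1.41 to 1.54).

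Other thiol enzymes had 1 of 20 higher and 1 lower. Selenof had 44.2 FPKM after anti-CD40 and 30.7 after IgG, whereas Selenom had 83.6 against 149.9. Both encode selenoproteins of the ER, as does Selenos. Ero1b, the paralog of Ero1a, had 6.02 against 4.22 FPKM. Of the 9 genes at 1 FPKM or more in the list named for glycan trimming, 0 were higher and 2 lower. These 2 were Engase, at 13.2 against 19.9, and Lman2, at 56.2 against 67.0, and a place in the list does not make either a trimming enzyme.

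Genes of stress signalling beside the sensors had 2 of 22 higher and 4 lower. The 2 higher were Trib3, at 2.13 FPKM after anti-CD40 and 1.20 after IgG, or 1.76-fold (1.22 to 2.60), and Sesn2, at 1.60 against 0.877. The phosphatase subunit gene Ppp1r15a, which restores translation after stress, had 64.8 against 47.7 FPKM. Its relative log2 ratio of 0.31 was just under the limit. Ddit3, the gene of the death-promoting factor CHOP, had 87.1 against 129 FPKM and was 1.48-fold lower (1.35 to 1.61), and Chac1 had 2.44 against 3.66. This list had a median of 0.08 but a mean of -0.02.

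Cell identity was checked with fixed markers. All 10 macrophage markers were above 1 FPKM in both libraries, and 8 of 10 lay above the median gene. Relative to it, Cd14 was highest, at 333 FPKM after anti-CD40 and 244 after IgG, and Fcgr1 lowest, at 27.1 and 30.3. Their summed FPKM was 15470 after anti-CD40 and 13120 after IgG, nearly all of it Lyz2 at 13423 and 11326. Plasma cells, which carry very large amounts of the ER machinery, were looked for with 8 markers found in the table. Of these, 6 were under 1 FPKM in both libraries, as were 25123 of all 34714 genes. The counts of the other cell types below stand beside the same share. Jchain had 0.037 and 0.117 FPKM, and Mzb1 had 0.045 FPKM after anti-CD40 and was at 0 in the IgG library. The summed level of the 8 was 28.3 and 24.0 FPKM, nearly all of it Sdc1 at 25.48 and 21.998, while Prdm1 had 1.98 and 1.04. B cell, fibroblast and dendritic cell markers were all under 1 FPKM (6 of 6 in each list). The summed FPKM of the fibroblast markers was 1.31 after anti-CD40 and 0.656 after IgG, with 4 of the 6 higher after anti-CD40. Col1a1 had 0.406 against 0.032 FPKM, on about 49 and 4 fragments. The B cell sum was 1.24 against 0.978 FPKM, and the dendritic cell sum 0.198 against 0.285. Of the T cell markers 5 of 6 and of the neutrophil markers 7 of 8 were under 1 FPKM, with Cd4 at 3.94 and 3.04 FPKM and S100a8 at 1.82 and 1.11 as the exceptions. The part of these markers in the values of the ER genes was not tested.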

How the data were processed

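The table held 1 value per gene and library for 2 libraries. Per the submitters' processing notes, HISAT2 2.1.0, StringTie (no version) and build mm10 were used. The annotation, the strand setting and any filter were not given in the sources used here. Values deposited by the authors were read as FPKM, inferred from StringTie and from unequal column sums of 529100 (anti-CD40) and 547400 (IgG), since the header names no unit. Columns were matched to groups by name, and 0 value columns were unused.

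Depth was estimated from the steps of low values of single-exon genes. With a step of 0.5 aligned bases, 71.4% of 49 low genes (anti-CD40) and 86.4% of 22 (IgG) came out whole within 0.1 steps. The depth taken was the one that made this share largest, so the share is no separate check of it. It came to 6.16 and 5.58 gigabases, or 20.5 and 18.6 fragments of 300 bases per FPKM and kilobase. Median lengths of GENCODE basic transcripts (M21, GRCm38) turned FPKM into approximate fragments, from 13 to 11170 per member and library. The 95% intervals rest on these assumptions and cover counting error only.

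Log2 ratios used a pseudocount of 1 FPKM and genes reaching 1 FPKM in at least 1 library, minus their median. With 1 library per group no test was run. The members and lists were chosen with earlier results of these data known. All members may be named, and of other lists up to 3 genes at each end. Symbols in older spelling were matched through RefSeq, and 2 plasma cell markers (Ighm and Igkc) had no match. Alternatives were pseudocounts of 0.1 and 5, no centring, rescaling by sums or upper quartile, no filter, a filter at 5 FPKM and removal of a length trend. Removal of a GC trend (lowess span 0.3) was chosen after seeing the data. Python 3.11.15, pandas 2.3.3, scipy 1.17.1 and statsmodels 0.14.6 were used.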

Additional observations from a re-analysis of the deposited data

How the results depend on the processing

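The members past the limit of 0.32 log2 units from the median gene numbered 4 higher and 1 lower. With the ratios as deposited they numbered 9 and 0 with a median of 0.206, with the column sums made equal 15 and 0 with a median of 0.242, and with no filter on low values 7 and 0. All genes had 18.3% and 8.26% past the limit as deposited, 23.5% and 6.73% with equal sums, and 8.42% and 5.89% with no filter. In the first 2 of these settings the ratios contain the shift of all genes, whose median was then 0.122 and 0.161. Pseudocounts of 0.1 and 5, upper-quartile scaling, a filter at 5 FPKM and removal of a length or GC trend gave 3 to 6 higher and 1 lower. Manf, Herpud1 and Selenos were higher in all 9 alternatives, whereas Syvn1 fell below the limit with a pseudocount of 5 and with the length trend removed. No member past the limit changed direction in any alternative run. Members near 0 did, such as Pdia3, at 0.02 in the main setting and -0.0037 with a pseudocount of 0.1. Calr and Sec61g were at -0.17 and -0.13 in the main setting and at 0.0026 and 0.04 with equal sums. The latter values contain the shift of all genes, and both genes stayed below the median of 0.161. No paired analysis was possible because each group held 1 library, and for the same reason no replicate could be left out. Depth limits Ern1, Pdia5, Edem3 and Eif2ak3, the least abundant members, whose intervals allow either direction. The intervals of Herpud2, Uggt1, Sdf2l1, Derl2, Os9, Sec61g, Ssr1 and Ssr4 include no difference as well.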
